A study of Homo sapiens with 12 samples.

Results

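Intestinal identity in HCT-116 cells was followed through 10 genes, looked up by symbol among the 59172 features of the deposited table. They were chosen with earlier results of these data known. They are the transcription factor genes CDX1, CDX2, HNF4A, GATA6, KLF5 and ELF3, and the differentiation markers VIL1, KRT20, LGALS4 and CDH17. All 10 were found, each as 1 feature. HCT-116 is a human colorectal carcinoma line. RNA was sequenced from 12 libraries in 4 groups of 3. The wild-type groups were untreated cells, cells given CPT-11 for 24 h, and cells pretreated with lovastatin for 4 h and then given CPT-11 for 24 h. The remaining group was SHP2-silenced cells given CPT-11 for 24 h. Their treatment label also names a lovastatin pretreatment of 4 h, which their titles do not, and they are grouped by title. CPT-11 (irinotecan) is a prodrug of a topoisomerase I poison, lovastatin inhibits HMG-CoA reductase, and SHP2 is the phosphatase encoded by PTPN11. No dose is stated in the labels, and neither lovastatin alone nor SHP2 silencing alone was among the groups. No silencing control was among them either, so the loss of SHP2 and the silencing procedure cannot be told apart. The libraries of a group are not stated to come from separate cultures, so the p-values below measure only how these samples vary, and that spread may be technical. Whether the silenced cells are 1 clone is also not stated. In RNA from whole cultures, fewer cells of a type and less RNA per cell cannot be told apart.

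The intestinal epithelium owes its identity to a small circuit of transcription factors. CDX1 and CDX2 are caudal-type homeobox proteins that specify the posterior gut and switch on intestinal genes. HNF4A is a nuclear receptor of enterocyte maturation, GATA6 a zinc finger factor of endoderm, KLF5 a Kruppel-like factor of proliferating crypt cells and ELF3 an epithelium-specific ETS factor. Villin (VIL1) bundles actin in microvilli, keratin 20 (KRT20) marks mature surface cells, galectin 4 (LGALS4) is a lectin of apical trafficking, and cadherin 17 (CDH17) is a liver and intestine adhesion protein.

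In these cells the circuit was present in part. Of the 10 genes, 6 had at least 10 reads in each of the 12 libraries, namely KLF5, ELF3, CDX2, GATA6, KRT20 and HNF4A, and 4 stayed below 1 FPKM in all of them, namely CDH17, VIL1, LGALS4 and CDX1. FPKM is the number of reads per kilobase of gene, divided by a library factor. With CPT-11, KRT20 rose 2.16-fold and KLF5 1.14-fold over untreated cells. With SHP2 silenced, ELF3 was 1.59-fold and HNF4A 1.74-fold higher than with CPT-11 alone. Against untreated cells, 4 of the 7 genes tested were higher in the lovastatin group, where 29.0% of all genes passed in either direction. In the silenced group 4 of the 7 were higher, where 37.8% of all genes passed. None of the 7 passed the test downward in the 6 comparisons of groups. Of all 18047 genes, 13 (lovastatin against CPT-11) to 3522 (silenced against untreated) were called lower, so few of 7 would be at these shares. CDX1, VIL1 and LGALS4 were too low to test. With variance weights per group, an alternative, KLF5 and CDH17 were called lower in silenced than in lovastatin cells. CDH17 entered the test only through CPT-11 and lovastatin libraries, so a lower level in silenced cells was favoured by that selection.

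The upstream sequences of the 4 genes that were higher in silenced than in untreated cells are shown because these genes share that call, though not the order of the groups. Each is the 250 bases before a transcription start in RefSeq (GRCh38.p14), 5′ to 3′ on the gene's strand. Capitals mark matches on either strand to motifs of CDX, HNF4, GATA, ETS and KLF factors or to a TATA box, whose letters are given after the sequences.
KRT20 (chr17:40885243-40885492, minus strand): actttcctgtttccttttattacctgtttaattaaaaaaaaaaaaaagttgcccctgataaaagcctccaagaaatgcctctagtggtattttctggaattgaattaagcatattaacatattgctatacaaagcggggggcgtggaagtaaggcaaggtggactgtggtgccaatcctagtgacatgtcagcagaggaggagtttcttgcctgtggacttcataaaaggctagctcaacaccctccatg
ELF3 (chr1:202010337-202010586, plus strand): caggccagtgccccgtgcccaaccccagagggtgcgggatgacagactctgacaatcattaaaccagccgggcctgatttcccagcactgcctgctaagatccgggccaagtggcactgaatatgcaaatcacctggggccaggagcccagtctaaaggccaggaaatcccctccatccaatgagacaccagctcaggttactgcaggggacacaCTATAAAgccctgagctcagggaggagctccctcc
CDX2 (chr13:27969316-27969565, minus strand): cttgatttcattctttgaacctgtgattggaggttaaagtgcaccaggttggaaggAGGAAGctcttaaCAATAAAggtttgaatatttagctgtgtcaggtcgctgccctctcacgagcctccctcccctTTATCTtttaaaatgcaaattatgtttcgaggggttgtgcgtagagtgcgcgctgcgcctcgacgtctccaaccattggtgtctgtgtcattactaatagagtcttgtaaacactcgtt
HNF4A, first start (chr20:44355449-44355698, plus strand): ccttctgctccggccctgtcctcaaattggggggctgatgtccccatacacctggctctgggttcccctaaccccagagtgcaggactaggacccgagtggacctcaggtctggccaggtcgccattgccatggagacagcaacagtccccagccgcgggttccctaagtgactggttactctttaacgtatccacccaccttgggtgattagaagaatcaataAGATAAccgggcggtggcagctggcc
HNF4A, second start (chr20:44400989-44401238, plus strand): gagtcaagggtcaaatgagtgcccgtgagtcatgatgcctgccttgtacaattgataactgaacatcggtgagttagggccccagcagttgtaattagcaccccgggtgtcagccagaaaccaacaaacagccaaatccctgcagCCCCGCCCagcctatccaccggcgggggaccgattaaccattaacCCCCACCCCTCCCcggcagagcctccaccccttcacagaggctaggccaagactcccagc

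The KRT20 window held none of the 6 motifs. In the ELF3 window a CDX match and a TATA box overlapped, 35 and 34 bases before the start. The CDX2 window held an ETS match 194, a CDX match 181 and a GATA match 119 bases upstream. HNF4A has 2 starts in the table, of which the first held a GATA match 26 bases upstream and the second 3 KLF matches at 105, 60 and 55 bases, the last 2 overlapping. The table gives reads per gene, so the starts cannot be told apart. Among 35116 windows of 250 bases before a start, 8.93% held a match to the CDX motif, searched as TTTATNG. The HNF4 motif, searched as CAAAGTNCA, was in 0.940% of these windows. The GATA motif, with the letters AGATAA, was in 9.17% of them. The ETS motif, with the letters AGGAAG, was found in 28.7%. The KLF motif, searched as GGGNGGGG, was found in 36.0%, and the TATA box, with the letters TATAAA, in 10.7%. A match is a description of letters and not a binding site. RefSeq windows were at hand for 7 of the 10 genes. The others are CDX1, VIL1 and CDH17.

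Libraries held 14447847 to 16224271 reads assigned to genes. PTPN11 measured 6.01 to 7.15 FPKM in the silenced libraries and 43.2 to 55.4 FPKM in the others. The treatment label of the silenced samples also names lovastatin, against their titles, but HMGCS1, a sterol synthesis gene, measured 24.9 to 25.8 FPKM in them, 25.2 to 31.2 with CPT-11 alone and 101 to 105 with lovastatin. CPT-11 replicate 3 stood apart, with a root mean square log2 difference to the rest of its group of 0.330, against 0.206 and 0.251 for replicates 1 and 2 and 0.153 to 0.213 in the other groups. Epithelial markers were present throughout, with EPCAM at 62.0 to 87.8 FPKM and keratin 8 (KRT8) at 256 to 337. KRT18 measured 159 to 184 and KRT19 348 to 627, while E-cadherin (CDH1) was lower, at 6.53 to 14.0. Of 26 markers of stroma, endothelium, blood, stomach, squamous epithelium and liver, 23 stayed below 1 FPKM in every library, among them PECAM1, PTPRC, CD3E and ALB. The others, VIM, COL1A1 and ACTA2, reached 2.71, 5.89 and 2.92 FPKM. The summed level of all 26 was 8.34 to 8.76 FPKM in untreated libraries and 9.64 to 10.8 with CPT-11. With lovastatin it was 9.96 to 10.7 and in silenced libraries 10.5 to 11.5, and its part in the results was not tested.

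CDX1 (ENSG00000113722, GRCh38 chromosome 5, 150166795 to 150184558) was not detected in 11 of 12 libraries. The 1 read found lay in lovastatin replicate 2. In a library, 3 reads, about the upper 95% limit for a count of 0, would correspond to 0.101 to 0.118 FPKM. This limit covers counting error only. CDX1 was too low to test.

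CDX2 (ENSG00000165556, chromosome 13, 27962137 to 27971139), the other caudal factor gene, was present at a moderate level. It measured 4.09, 3.03 and 3.37 FPKM in untreated libraries, 3.95, 3.79 and 4.63 with CPT-11, 4.90, 5.19 and 5.08 after lovastatin pretreatment, and 4.83, 4.77 and 5.88 in silenced cells with CPT-11. All lovastatin and silenced libraries lay above all untreated and CPT-11 libraries, while untreated and CPT-11 libraries overlapped. CDX2 was higher than in untreated cells with lovastatin (log2 difference 0.44 ± 0.10 SE, adjusted p = 0.00942, 1.45-fold) and in silenced cells (0.46 ± 0.10, adjusted p = 0.00548, 1.48-fold). These and the following differences come from limma on log2(FPKM + 1), which understates changes of low genes, with Benjamini-Hochberg adjustment over 18047 genes and a threshold of 0.05. Against CPT-11 alone, CDX2 differed by 0.24 ± 0.10 with lovastatin (adjusted p = 0.230) and by 0.27 ± 0.10 with SHP2 silenced (adjusted p = 0.0858), neither past the threshold. Without CPT-11 replicate 3, which had the highest CDX2 of its group, both passed (0.31, adjusted p = 0.0467, and 0.33, adjusted p = 0.0262). In untreated cells CDX2 lay above 57.8% of protein-coding genes by mean FPKM, and in silenced cells above 64.3%.

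HNF4A (ENSG00000101076, chromosome 20, 44355700 to 44434596) was low and highest in silenced cells. It measured 1.05, 0.690 and 0.843 FPKM untreated, 0.954, 0.769 and 0.992 with CPT-11, 1.21, 1.10 and 1.05 with lovastatin and 1.77, 1.31 and 1.64 with SHP2 silenced, from 80 to 198 reads per library. The silenced libraries lay above all others. HNF4A was higher in silenced cells than with CPT-11 alone (0.43 ± 0.09, adjusted p = 0.0126) and than in untreated cells (0.47 ± 0.09, adjusted p = 0.00268). The first call was lost without CPT-11 replicate 2 (adjusted p = 0.0568), without silenced replicate 1 (adjusted p = 0.0548), when the fit held these groups alone (adjusted p = 0.0645) and with no filter on low values (adjusted p = 0.0566). Silenced and lovastatin libraries did not overlap either, but the difference of 0.27 (95% interval 0.07 to 0.48) did not pass (adjusted p = 0.111). CPT-11 and untreated libraries overlapped, with a difference of 0.04 (-0.17 to 0.24). Its overlapping antisense gene HNF4A-AS1 had 1 to 8 reads per group and shares no exon bases with it.

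GATA6 (ENSG00000141448, chromosome 18, 22169443 to 22202528) showed the least movement of the factors expressed. Its levels were 2.84, 3.20 and 3.06 FPKM untreated, 2.82, 2.68 and 3.25 with CPT-11, 2.89, 3.20 and 3.12 with lovastatin and 2.58, 2.96 and 2.46 with SHP2 silenced. The groups overlapped in every comparison and none passed the test. The widest difference was between silenced and lovastatin cells, at -0.15 (95% interval -0.33 to 0.03, adjusted p = 0.332). A pair of antisense genes, GATA6-AS1 and AC091588.3, share 240 and 321 of its 3945 exon bases, and had 10 to 28 reads per group.

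KLF5 (ENSG00000102554, chromosome 13, 73054976 to 73077542) was the most abundant of the 10, above 88.1% of protein-coding genes in untreated cells. It measured 17.9, 19.3 and 18.5 FPKM untreated, 21.7, 21.3 and 20.8 with CPT-11, 21.6, 21.7 and 22.1 with lovastatin and 19.9, 20.3 and 19.1 in silenced cells. All CPT-11 and lovastatin libraries lay above all untreated libraries, and the silenced libraries lay between, overlapping the untreated ones. KLF5 rose with CPT-11 by 0.19 ± 0.05 (adjusted p = 0.0186) and was higher with lovastatin than untreated by 0.22 ± 0.05 (adjusted p = 0.00442). The CPT-11 call was lost without untreated replicate 1 (adjusted p = 0.0668), untreated replicate 3 (adjusted p = 0.0566) or CPT-11 replicate 1 (adjusted p = 0.0638), when the fit held these groups alone (adjusted p = 0.136) and with variance weights per group (adjusted p = 0.0558). In silenced cells KLF5 differed from untreated by 0.09 (-0.01 to 0.19, adjusted p = 0.158) and from CPT-11 alone by -0.10 (-0.20 to 0.00285, adjusted p = 0.139). The first difference passed when values were scaled to library totals (0.18, adjusted p = 0.0118). Silenced and lovastatin libraries did not overlap, with a difference of -0.13 (-0.24 to -0.03, adjusted p = 0.111) that passed with variance weights per group (adjusted p = 0.0335).

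ELF3 (ENSG00000163435, chromosome 1, 202007945 to 202017188) had the widest range of group means on the log2(FPKM + 1) scale, while KRT20 had the wider range by fold. It measured 3.38, 3.48 and 2.79 FPKM untreated, 3.66, 3.63 and 4.50 with CPT-11, 4.10, 4.56 and 3.91 with lovastatin and 6.34, 6.41 and 5.995 in silenced cells. The silenced libraries lay above all others, and each CPT-11 library lay above each untreated one. ELF3 was higher in silenced cells than with CPT-11 alone (0.56 ± 0.09, adjusted p = 0.00435), with lovastatin (0.48 ± 0.09, adjusted p = 0.0108) and untreated (0.78 ± 0.09, adjusted p = 1.01e-04). The call against lovastatin was lost without lovastatin replicate 3 (adjusted p = 0.0532) or silenced replicate 2 (adjusted p = 0.0513). With CPT-11 alone it differed from untreated by 0.22 (0.02 to 0.43), which did not pass (adjusted p = 0.134). With lovastatin it was higher than untreated by 0.30 ± 0.09 (adjusted p = 0.0328), a call lost with the replicate numbers as a block (adjusted p = 0.0602), with no filter (adjusted p = 0.0667) and without untreated replicate 3 (adjusted p = 0.128) or lovastatin replicates 1 or 2 (adjusted p = 0.0678 and 0.121). The antisense gene ELF3-AS1 shares 664 of the 7191 exon bases of ELF3. Its mean level was 1.05 FPKM untreated, 1.28 with CPT-11, 1.43 with lovastatin and 1.58 in silenced cells, and reads of the pair cannot be told apart, since the strand option of the counting is not given in the sources used here.

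KRT20 (ENSG00000171431, chromosome 17, 40875941 to 40885227), the surface cell keratin, had the largest fold change of the members past the test. It measured 0.524, 0.649 and 0.550 FPKM untreated, 1.27, 1.17 and 1.28 with CPT-11, 1.63, 1.55 and 1.40 with lovastatin and 1.49, 1.12 and 1.37 in silenced cells, from 14 to 19 reads per untreated library and 33 to 49 in the others. Every library with CPT-11 lay above every untreated one. KRT20 rose by 0.51 ± 0.08 with CPT-11 (adjusted p = 9.59e-04), and was higher than untreated by 0.68 ± 0.08 with lovastatin (adjusted p = 7.56e-05, 2.65-fold) and by 0.56 ± 0.08 in silenced cells (adjusted p = 2.18e-04, 2.31-fold). Each call held in the 14 alternatives run for its comparison, which for CPT-11 against untreated cells include leaving out CPT-11 replicate 3. Among the CPT-11-treated groups no difference passed. Lovastatin and CPT-11 libraries did not overlap, with a difference of 0.17 (0.01 to 0.34, adjusted p = 0.233), and silenced cells differed from CPT-11 alone by 0.05 (-0.11 to 0.22, adjusted p = 0.625).

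CDH17 (ENSG00000079112, chromosome 8, 94127171 to 94217303) was at the edge of detection. It had 9, 3 and 7 reads untreated, 4, 9 and 15 with CPT-11, 9, 12 and 17 with lovastatin and 4, 3 and 4 in silenced cells. It entered the test through 1 CPT-11 and 2 lovastatin libraries that reached 10 reads after scaling, so its presence there depends on the groups in which it was high. No difference passed, the widest being -0.18 (95% interval -0.32 to -0.04, adjusted p = 0.115) between silenced and lovastatin cells, whose libraries did not overlap. This difference passed with variance weights per group (adjusted p = 0.0335).

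VIL1 (ENSG00000127831, chromosome 2, 218419092 to 218453295) and LGALS4 (ENSG00000171747, chromosome 19, 38801671 to 38813364) were too low to test. VIL1 had 0, 7 and 1 reads untreated, 7, 5 and 6 with CPT-11, 8, 16 and 4 with lovastatin and 6, 7 and 6 in silenced cells, or at most 0.144 FPKM. LGALS4 had 5, 3 and 3 reads untreated, 0, 3 and 1 with CPT-11, 5, 7 and 4 with lovastatin and 2, 5 and 1 in silenced cells, or at most 0.164 FPKM. For LGALS4 the CPT-11 and lovastatin libraries did not overlap and the other groups did, with no test at these read numbers. Of the 6920 exon bases of VIL1, 3045 are shared with USP37 on the opposite strand, which measured 3.06 to 4.29 FPKM as group means. The level of VIL1 is therefore uncertain, as the treatment of reads over both genes is not given in the sources used here.

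**Figure D1:**
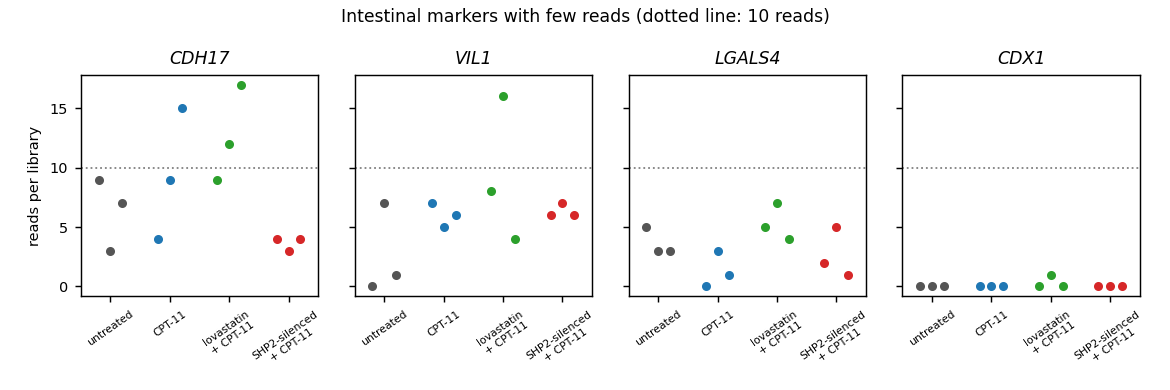
Reads per library (vertical axis) of the 4 intestinal genes below 1 FPKM, with 1 point per library and groups on the horizontal axis. CDX1 has 1 read in all 12 libraries, LGALS4 at most 7, VIL1 at most 16 and CDH17 at most 17, with the dotted line at 10 reads before scaling.

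**Figure D2:**
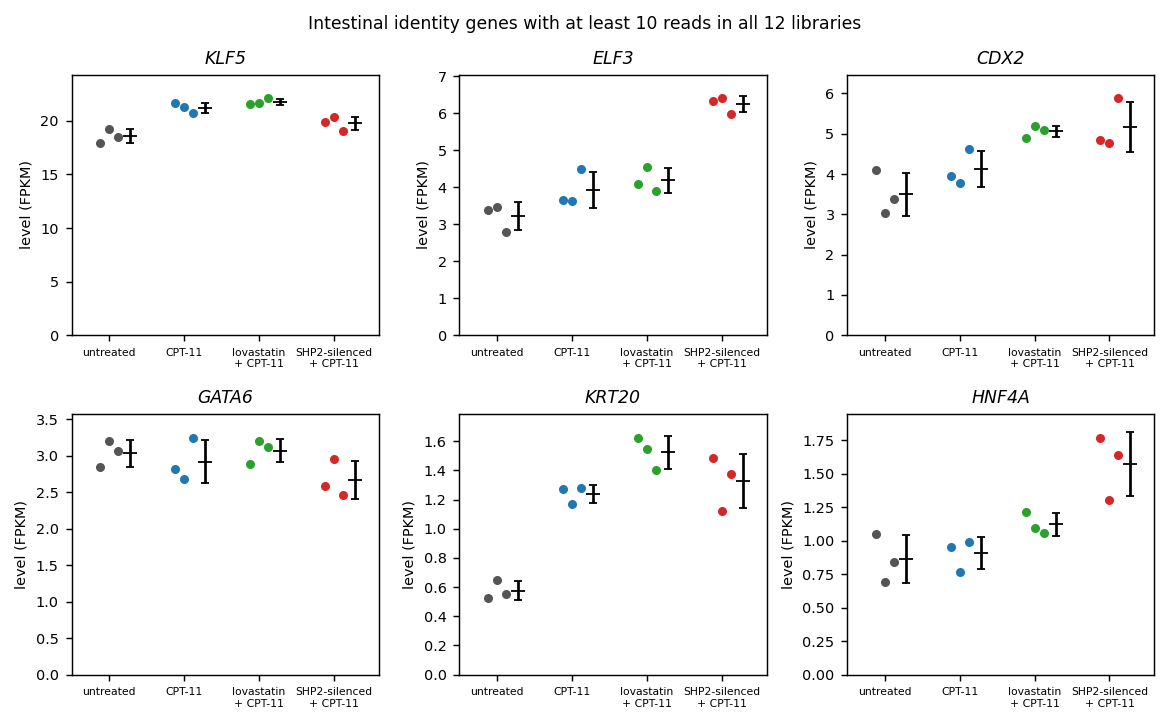
Level in FPKM (vertical axes, from 0) of the 6 intestinal genes with at least 10 reads in all 12 libraries, with 1 coloured point per library and the mean with its SD (n = 3) in black beside each group. KRT20 is lower in the untreated libraries than in all others, ELF3 and HNF4A are highest in the silenced libraries, and GATA6 overlaps between groups.

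The 7 genes tested were then counted in each comparison, beside the share of all 18047 tested genes that passed. Between CPT-11 and untreated cells 2 of 7 were higher, KLF5 and KRT20, and 0 lower, where 16.6% of all genes passed in either direction. Their median log2 difference was 0.19, against -0.01 over all genes. By voom on recovered reads the same 2 were called. Between lovastatin with CPT-11 and CPT-11 alone 0 of 7 passed by limma and 0 by voom, with 2 at an unadjusted p under 0.05, CDX2 and KRT20. There 0.465% of all genes passed. The median was 0.08, against 0.00334 over all genes. Without CPT-11 replicate 3 the count over all genes in this comparison was 5458 in place of 84, and 1 of the 7 passed, CDX2.

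Between silenced cells and CPT-11 alone 2 of 7 were higher, ELF3 and HNF4A, and 0 lower, where 22.0% of all genes passed in either direction. The median was 0.05, against 0.00458 over all genes. Without CPT-11 replicate 3 there were 3, with CDX2 added, of 7850 genes in all. ELF3 alone was called without CPT-11 replicate 2 (1152 genes in all), without silenced replicate 1 (1215 genes) and when the fit held these groups alone (451 genes). Leaving out CPT-11 replicate 1, silenced replicate 2 or silenced replicate 3 kept both calls, with 1021, 1423 and 1981 genes in all, against 3976 with every library. Between silenced and lovastatin cells, both with CPT-11, ELF3 alone of the 7 passed, as higher, where 6.84% of all genes passed in either direction. The median there was -0.12, against -0.00160 over all genes.

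Against untreated cells, which these comparisons share with the one of CPT-11 alone, the lovastatin group had 4 of 7 higher (CDX2, KLF5, ELF3 and KRT20), where 29.0% of all genes passed in either direction. The silenced group also had 4 of 7 higher (CDX2, HNF4A, ELF3 and KRT20), where 37.8% passed. The medians were 0.22 and 0.46, against 0.00276 and 0.00419 over all genes. The 4 of the silenced group were called without each library in turn.

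**Figure D3:**
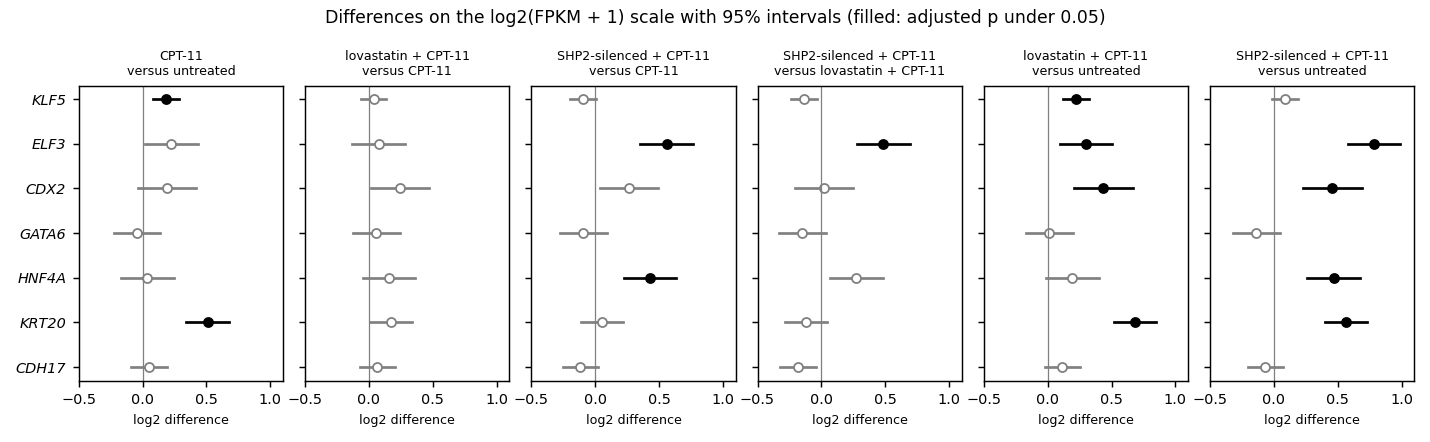
Difference between group means on the log2(FPKM + 1) scale (horizontal axes) for the 7 tested genes in the 6 comparisons, as points with 95% intervals from limma, filled where the adjusted p is under 0.05. Filled points lie to the right of 0 in every panel that has them, and the lovastatin against CPT-11 panel has none.

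The order of the groups differed from gene to gene. CDX2, HNF4A and ELF3 had the same order of means, from untreated through CPT-11 and lovastatin to silenced. Of the neighbours in that order, only lovastatin and silenced in ELF3 differed past the threshold. KRT20 and KLF5 were highest with lovastatin. In KRT20 the step from untreated (0.575 ± 0.066 SD) to CPT-11 (1.24 ± 0.061) passed, and no later step did. In KLF5, where the means ran from untreated (18.6 ± 0.66) through silenced (19.8 ± 0.62) and CPT-11 (21.2 ± 0.46) to lovastatin (21.8 ± 0.29), no neighbours differed past the threshold.

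For the 3 tested genes with the widest range of group means on the log2(FPKM + 1) scale, the protein-coding genes of most like pattern were sought by the root mean square difference of the 12 values, each gene scaled to its own mean and SD. ELF3 was most like ETNK2 (0.203), GIT1 (0.220) and UROS (0.222), KRT20 most like MAP3K12 (0.207), RETSAT (0.207) and SLC25A4 (0.218), and HNF4A most like TGIF2 (0.357), ID3 (0.364) and ANGEL1 (0.382). The median over the 13731 other genes was 1.34 for ELF3 and KRT20 and 1.35 for HNF4A. RETSAT, a retinol saturase gene, measured 23.5, 40.0, 46.4 and 40.6 FPKM as means of the untreated, CPT-11, lovastatin and silenced groups. ID3, which encodes an inhibitor of helix-loop-helix factors, measured 12.8, 15.3, 18.5 and 41.1.

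Further intestinal genes were read from lists. Of 23 other transcription factors of the gut 18 could be tested, and with CPT-11 4 of them were called higher and 2 lower, where 16.6% of all genes passed. EHF, an ETS factor like ELF3, rose from 4.74 ± 0.32 to 7.38 ± 0.50 FPKM (0.55 ± 0.07 SE, adjusted p = 4.30e-04), and PRDM1, a transcriptional repressor gene, from 0.287 ± 0.025 to 1.10 ± 0.25. TCF7L2, the main partner of beta-catenin in the gut, fell from 30.0 ± 0.52 to 14.8 ± 1.4 (-0.97 ± 0.07, adjusted p = 3.78e-06). VDR, named after its values were seen, also rose. The remaining one called higher, FOXA2, had 1 to 4 reads in untreated libraries, 13 to 16 with CPT-11, 3 to 16 with lovastatin and 3 to 8 in silenced cells. It entered the test mainly through the CPT-11 group in which it was high, a choice on which its calls in both comparisons rest. With SHP2 silenced, 1 of the 18 was called higher and 5 lower than with CPT-11 alone, where 22.0% of all genes passed. EHF was lower, at 2.71 ± 0.063 FPKM (-1.17 ± 0.07, adjusted p = 1.04e-05), where ELF3 of the same family was higher. SOX9, a factor of crypt progenitors, was lower at 49.3 ± 2.0 against 72.1 ± 1.2 (-0.54 ± 0.05, adjusted p = 2.33e-04). Named after their values were seen, FOXA3 was higher, and HNF4G, the paralogue of HNF4A, was lower (0.594 ± 0.010 against 1.07 ± 0.21, adjusted p = 0.0116), as were PPARG and FOXA2. The medians of this list were 0.11 and -0.09, against -0.01 and 0.00458 over all genes.

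Genes listed for enterocytes and colonocytes were mostly out of reach, since 27 of 38 were too low to test, including FABP1, SI, ALPI, CEACAM5 and GUCA2A. Those tested include the general epithelial genes KRT8, KRT18, KRT19, EPCAM and CDH1, so their counts are not particular to mature intestinal cells. Of the 11 tested, 5 rose with CPT-11 and 0 fell (median 0.19), where 16.6% of all genes passed. CA2, carbonic anhydrase 2, rose from 11.7 ± 1.0 to 29.5 ± 4.3 FPKM (1.26 ± 0.10, adjusted p = 1.17e-05) and the tetraspanin gene TSPAN1 from 1.79 ± 0.46 to 4.85 ± 0.66 (1.07 ± 0.15, adjusted p = 6.18e-04). E-cadherin (CDH1) rose by 0.23 ± 0.07 (adjusted p = 0.0481), a call lost in 9 of 14 alternatives. KRT19 and the peptide transporter gene SLC15A1, named after their values were seen, also rose. With SHP2 silenced 3 of 11 were higher than with CPT-11 alone and 0 lower (median 0.08), a share near the 22.0% of all genes. These were CDH1 (13.5 ± 0.67 against 8.27 ± 0.60 FPKM, 0.65 ± 0.07, adjusted p = 3.56e-04), EPCAM (84.7 ± 3.4 against 68.1 ± 4.6, adjusted p = 0.00580) and TSPAN1 (7.05 ± 0.88, adjusted p = 0.0464), the last lost in 10 of 14 alternatives.

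Brush border assembly genes, which build microvilli around villin, could be tested in 18 of 20 cases. With CPT-11 3 rose and 2 fell (median 0.00473), where 16.6% of all genes passed. When the fit held these groups alone, 2 were called higher and 0 lower, and the call of EZR was lost. In that fit 1151 of all 18047 genes passed. EPS8L2 rose from 22.6 ± 3.3 to 56.1 ± 10.2 FPKM (1.27 ± 0.12, adjusted p = 4.07e-05) and the brush border myosin gene MYO1A from 0.327 ± 0.21 to 1.02 ± 0.10 (0.62 ± 0.11, adjusted p = 0.00365), while EZR, the membrane linker ezrin, fell from 484 ± 10.2 to 390.5 ± 7.4. CORO2A rose and CDHR5 fell, named after their values were seen. With SHP2 silenced 5 were higher and 1 lower than with CPT-11 alone (median 0.05), where 22.0% of all genes passed. EPS8, an actin capping protein gene, was the one lower, at 7.15 ± 0.13 against 11.3 ± 1.9. Higher, named after their values were seen, were CDHR2, CDHR5, MYO1D, ESPN and BAIAP2L2. When the fit held these groups alone 0 of the 6 calls were made, where 451 of all 18047 genes passed. Without CPT-11 replicate 3 there were 10 calls, 7 higher and 3 lower, where 7850 of all 18047 genes passed.

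Of 19 secretory lineage genes only 3 could be tested. MUC2, the mucin of goblet cells, had 0 to 1 reads in untreated libraries, 22 to 35 with CPT-11, 22 to 28 with lovastatin and 37 to 51 in silenced cells. It entered the test only through the treated groups in which it was high, so its difference of 0.18 ± 0.04 between CPT-11 and untreated cells (adjusted p = 0.0131) was bound to be positive. This call was lost when the fit held these groups alone and with variance weights. FCGBP rose from 0.929 ± 0.23 to 1.51 ± 0.42 FPKM (adjusted p = 0.0484), a call lost in 9 of 14 alternatives. SCG2, a neuroendocrine granin gene, fell from 8.98 ± 0.20 to 6.16 ± 0.87, and was lower again with SHP2 silenced, at 3.87 ± 0.17. Among the markers of other cell types, 10 of 26 could be tested, with 2 higher and 1 lower in each of both comparisons, where 16.6% (CPT-11 against untreated) and 22.0% (silenced against CPT-11) of all genes passed. VIM, the mesenchymal filament vimentin, fell from 2.43 ± 0.30 to 1.44 ± 0.063 with CPT-11 and was 0.251 ± 0.070 with SHP2 silenced. ACTA2 rose from 0.986 ± 0.11 to 2.39 ± 0.039 with CPT-11. Overlaps with other genes were examined for the members only, and not for ACTA2 or the other listed genes. KRT5 measured 0.0780 ± 0.018 untreated and 0.362 ± 0.14 with CPT-11, and its 4 to 6 reads per untreated library mean that it entered the test only through the treated groups in which it was high. COL1A1 and, named after its values were seen, MUC6 were higher with SHP2 silenced. The COL1A1 call was lost in 8 of 14 alternatives and the KRT5 call in 3 of 13. Without CPT-11 replicate 3 the calls between silenced cells and CPT-11 alone came to 10 of the factors (3 higher, 7 lower), 5 of the enterocyte genes and 5 of the other markers, in place of 6, 3 and 3. In that setting 7850 of all 18047 genes passed, in place of 3976. When the fit held these groups alone the calls came to 3, 1 and 1, where 451 of all 18047 genes passed. Alternatives for these lists were chosen after the data were seen.

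Between lovastatin with CPT-11 and CPT-11 alone 0 genes of these 5 lists passed by limma, and 0 by voom. By limma 0.465% of all genes passed there. At an unadjusted p under 0.05 there were 4 of 18 factors, 3 of 11 enterocyte genes and 3 of 18 brush border genes. The secretory genes gave 0 of 3 and the other markers 1 of 10. The share of all genes at that level is not given here. Without CPT-11 replicate 3 the counts past the adjusted threshold were 3, 4, 7, 1 and 1. In that setting 5458 of all 18047 genes passed, in place of 84.

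**Figure D4:**
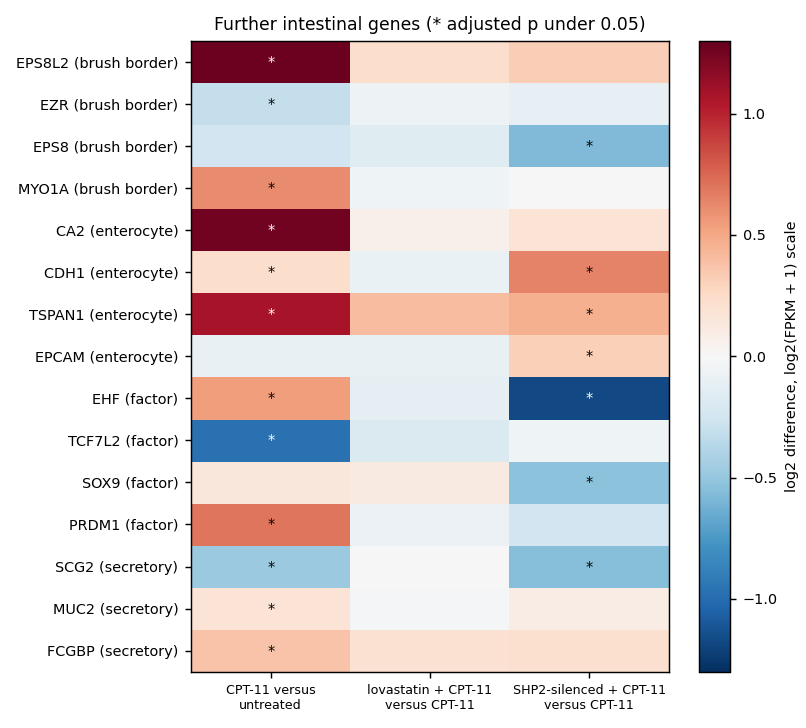
Log2 differences on the log2(FPKM + 1) scale (colour) of the further intestinal genes named by rule (rows, with their list) in 3 comparisons (columns), with a star where the adjusted p is under 0.05. EPS8L2, CA2 and TSPAN1 have the largest rises with CPT-11 and TCF7L2 the largest fall, EHF has the largest fall with SHP2 silenced, and no star lies in the lovastatin column.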

How the data were processed

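Per the submitters' processing notes, HISAT2 2.0.5, StringTie 1.3.3b, featureCounts 1.5.0-p3, DESeq2 1.16.1 and the build hg19 were used, with no roles given. The deposited table gives FPKM values by the authors. Its coordinates are those of GRCh38. Of its 59172 features, 58735 were matched by identifier to GENCODE release 29, and 100% of these have the same coordinates there. FPKM times gene length was a whole multiple of a step per library for 100% of nonzero values (within 0.01 of a read), which gave the reads per gene. The library factor followed median-of-ratios size factors, so changes are relative to the typical gene.

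limma 3.58.1 (R 4.3.3) was fitted to log2(FPKM + 1) with a mean per group over all 12 libraries and a variance trend. Genes needed 10 reads, scaled to the median library, in 3 libraries and 15 reads in all. Alternatives were a pseudocount of 0.1, other filters, scaling to totals, voom, weights, only 2 groups, a replicate block and leaving out each library. The members and lists were chosen with earlier results of these data known. Besides the members, at most 4 genes per list with the smallest p in 3 comparisons are named. Alternatives for the lists were added after the data were seen. 1 gene of the factor list is counted but not reported here by name.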

Additional observations from a re-analysis of the deposited data

How the results depend on the processing

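Of 582 values of the 7 tested genes under alternatives, 555 kept direction and side of the threshold, 16 lost their call, 6 gained one and 5 changed sign. The cause of these changes was not tested. The sign changes were in HNF4A (CPT-11 against untreated, without untreated replicate 2, range without single libraries -0.0308 to 0.108), CDH17 (same comparison, without CPT-11 replicate 3, -0.00351 to 0.103), CDX2 (silenced against lovastatin, without silenced replicate 3, -0.0614 to 0.0653) and GATA6 (lovastatin against untreated, without untreated replicate 1 or, at -0.00938, lovastatin replicate 2, -0.0214 to 0.0462). Counts of the 7 moved as follows. CPT-11 against untreated: 1 with only these groups or variance weights, 1 to 2 without single libraries. Lovastatin against CPT-11: 0 to 1 without single libraries. Silenced against CPT-11: 1 with no filter or only these groups, 1 to 3 without single libraries. Silenced against lovastatin: 4 with weights (CDH17 and KLF5 lower, ELF3 and HNF4A higher), 0 to 1 without single libraries.

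Over all genes, CPT-11 against untreated gave 2991, 1151 with only these groups, 1820 with weights and 1930 to 4418 without single libraries. Lovastatin against CPT-11 gave 84, 36 with only these groups, 141 by voom, 51 with weights, 46 with the replicate block and 41 to 5458 without single libraries. Silenced against CPT-11 gave 3976, 1750 with no filter, 451 with only these groups, 2358 with the replicate block and 1021 to 7850 without single libraries. Silenced against lovastatin gave 1235, 2446 with only these groups, 2807 with weights, 771 with the replicate block and 598 to 731 without single libraries. Scaling to library totals moved the split of higher and lower genes from 1598 and 1393 to 1911 and 1005 (CPT-11 against untreated), from 1806 and 2170 to 2364 and 1640 (silenced against CPT-11), from 466 and 769 to 630 and 674 (silenced against lovastatin), from 2648 and 2582 to 3240 and 1954 (lovastatin against untreated) and from 3306 and 3522 to 4332 and 2575 (silenced against untreated). Whether same-numbered libraries share a culture or day is not stated. The correlation of their deviations from group means was over 0.1 in 2 of 18 pairs (-0.39 to 0.18). Pairs of other numbers were over 0.1 in 6 of 36 (-0.33 to 0.45). With 3 libraries a group these values cannot settle it. Apart from ELF3 in lovastatin against untreated cells, the block changed no call of the 7 genes.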
